A study of Mus musculus with 12 samples.

Results

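Secreted signals of inflammation, 8 genes in all, were followed in G2A and wild-type (WT) mouse cells: the chemokines Ccl2, Ccl7, Cxcl1, Cxcl5 and Cxcl12 and the cytokines Il6, Lif and Csf1. They were picked out by gene symbol, with earlier results of these data known. All 8 were listed in both expression tables, among 23235 entries for fetal liver and 24421 for fibroblasts. The liver groups were livers of Rpt2G2A/G2A embryos at E12.5 (3 libraries) against livers of WT embryos at E12.5 (3 libraries). The cultured groups were immortalized mouse embryonic fibroblasts (MEFs) of the Rpt2G2A/G2A genotype (2 libraries) against immortalized WT MEFs (3 libraries), all untreated. As background, Rpt2 is a proteasome ATPase encoded by Psmc1, and the G2A knock-in replaces the glycine that carries its myristoyl lipid anchor. The labels describe the livers as pairs of littermates and say nothing on separate cultures, clones or the means of immortalization of the MEFs, so the p-values measure only the spread between these libraries. G2A MEF sample 3 is labelled and was not analysed here.

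Chemokines are small secreted proteins that bind G protein-coupled receptors and set the direction in which leukocytes move. Ccl2 and Ccl7 act on the monocyte receptor Ccr2, Cxcl1 and Cxcl5 on the neutrophil receptor Cxcr2, and Cxcl12 on Cxcr4, through which stroma retains blood progenitors. Il6 and Lif signal through the shared receptor chain Il6st to Jak kinases and Stat3, and Csf1 is the growth factor of macrophages through Csf1r. Many of these genes are induced by NF-kB, whose inhibitor Nfkbia is a proteasome substrate. The fetal liver at this stage is a site of blood formation in which stromal cells and macrophages surround red cell precursors.

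The genes lie in part in clusters (mm9, also called NCBIM37, GENCODE vM1, all protein coding). Ccl2 (ENSMUSG00000035385.5) lies at chr11:81849073-81850955 and Ccl7 (ENSMUSG00000035373.2) at chr11:81859214-81861027, 8.26 kb apart on the plus strand. Cxcl5 lies at chr5:91188325-91190651 and Cxcl1 at chr5:91320267-91322141, 130 kb apart on the plus strand. Cxcl12 lies at chr6:117118553-117131385, Lif at chr11:4157560-4172517, Il6 at chr5:30339701-30346508 and, on the minus strand, Csf1 at chr3:107543966-107563387. The 250 bases before the gene start are shown for Cxcl1, Cxcl12 and Lif, 3 of the 4 members that passed limma's test in MEFs once WT library 3 was left out, the other being Cxcl5 (RefSeq, GRCm38.p6, plus strand, chr5:90890995-90891244, chr6:117168285-117168534 and chr11:4257318-4257567). Capitals mark matches to NF-kB in Cxcl1, to GGGCGG on either strand in Cxcl12 and to TGANTCA, the AP-1 motif, in Lif.
Cxcl1: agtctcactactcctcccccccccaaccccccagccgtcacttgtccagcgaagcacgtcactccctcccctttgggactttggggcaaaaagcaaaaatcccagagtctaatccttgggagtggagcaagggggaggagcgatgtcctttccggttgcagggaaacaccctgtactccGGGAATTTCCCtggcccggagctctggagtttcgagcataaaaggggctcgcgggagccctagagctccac
Cxcl12: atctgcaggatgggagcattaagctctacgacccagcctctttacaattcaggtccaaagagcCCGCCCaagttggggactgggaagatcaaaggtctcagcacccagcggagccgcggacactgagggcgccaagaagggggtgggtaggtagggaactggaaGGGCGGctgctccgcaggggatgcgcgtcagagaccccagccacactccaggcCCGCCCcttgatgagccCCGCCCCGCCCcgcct
Lif: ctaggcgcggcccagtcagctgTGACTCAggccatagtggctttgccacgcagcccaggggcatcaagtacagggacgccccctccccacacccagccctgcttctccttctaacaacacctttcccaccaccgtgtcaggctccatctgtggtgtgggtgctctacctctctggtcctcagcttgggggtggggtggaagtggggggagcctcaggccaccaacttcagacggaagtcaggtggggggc
Both strands were searched for NF-kB, TGANTCA, TTNNGCAA (a C/EBP motif) and GGGCGG (a GC box). Of all 32851 promoter windows of this length, 3.90% held NF-kB, 6.75% TGANTCA, 9.56% TTNNGCAA and 32.7% GGGCGG. Cxcl1 held 2 overlapping NF-kB matches, 1 on each strand of the same stretch, starting 71 bases before the gene start. Cxcl12 held 5 matches to GGGCGG, of which the last 2 overlap by 1 base, and none to the other motifs searched. The window of Il6 held 1 match each to NF-kB, TGANTCA and TTNNGCAA. The window of Csf1 held 1 NF-kB match and 2 matches to GGGCGG. These matches describe the letters of the windows and were not set against binding. Promoters of 5 of the 8 members were matched, without Ccl2, Ccl7 and Cxcl5.

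Libraries differed beyond genotype in both tissues. MEF values are reads divided by 1 size factor per library, from 36415586 to 37695116 gene reads. The liver values are FPKM, which scales fragments by gene length and library total, with totals of 792987 to 840762 and unknown depth. WT MEF library 3 stood apart from the other WT MEFs. Over the 13241 MEF genes tested, its Pearson correlation of log2 values was 0.953 and 0.958 with G2A MEFs 1 and 2, and 0.890 and 0.882 with WT MEFs 1 and 2. Along the leading principal component, with 73.4% of the variance, it lay at -72.5, beside -51.5 and -55.2 for G2A MEFs 1 and 2 and against 87.2 and 92.0 for WT MEFs 1 and 2. Among the livers, G2A liver 3 lay at 7.91 on the first component (37.9%), against -30.6 and -34.9 for G2A livers 1 and 2 and 13.3 to 23.3 for the WT livers. Its correlation was 0.958 and 0.956 with G2A livers 1 and 2, and 0.960, 0.969 and 0.969 with WT livers 1, 2 and 3. Libraries were grouped by their labels. Whether WT MEF 3 and G2A liver 3 carry their own labels was not tested, and every difference between G2A and WT in either tissue rests on those labels. For the members and for the genes named from the lists, values without WT MEF 3 or G2A liver 3 stand beside those with all libraries where the call changes. Psmc1 itself was at 151, 145 and 161 FPKM in G2A livers 1, 2 and 3 and at 178, 181 and 178 in WT livers 1, 2 and 3, and at 10658 and 10913 normalized reads in G2A MEFs 1 and 2, against 7393, 8589 and 6485 in WT MEFs 1, 2 and 3; neither level tests the G2A substitution. Psmc1 did not pass limma's test (adjusted p = 0.114 in liver and 0.282 in MEFs).

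In fetal liver the question was whether these signals differ between G2A and WT embryos. Ccl2 and Ccl7 were above every WT liver in all 3 G2A livers, and Cxcl12, by far the most abundant member, was below every WT liver. Csf1 overlapped between the genotypes. Cxcl1, Cxcl5, Il6 and Lif were at most 1.27 FPKM in any liver. None of the 3 members that passed the filter of at least 1 FPKM in at least 3 libraries (Ccl2, Cxcl12 and Csf1) passed limma's test at an adjusted p under 0.05, where 0.0232% of the 12938 genes tested did (0.0155% higher and 0.00773% lower). Without G2A liver 3 none of the 3 passed either, where 24.5% of 12795 genes did, 12.3% higher and 12.2% lower. At an unadjusted p under 0.05 all 3 passed, against 21.4% of all genes. Ccl2 reached 1 FPKM in every G2A liver but, among the WT livers, in WT liver 1 alone. It thus passed the filter only through the G2A livers, where it was high, and is no independent support for a direction.

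Ccl2, the main attractant of monocytes, was at 3.48, 2.91 and 3.83 FPKM in G2A livers 1, 2 and 3, against 2.24, 0.662 and 0.771 FPKM in WT livers 1, 2 and 3. The groups did not overlap, and WT liver 1 lay closest to the G2A livers. The difference was 2.07-fold on the log2(FPKM + 1) scale (log2 fold change 1.05, 95% confidence interval 0.40 to 1.70, SE 0.27, limma adjusted p = 0.124). Without any 1 liver it stayed between 0.87 and 1.36, with the adjusted p between 0.0618 and 0.362. With library weights estimated by limma it passed (log2 fold change 1.14, adjusted p = 0.00656, in a range over 14 alternatives of 0.00656 to 0.362). That fit called 6057 of 12938 genes.

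Ccl7, a second monocyte attractant and the neighbour of Ccl2, was at 1.14, 0.981 and 0.894 FPKM in G2A livers 1, 2 and 3, against 0.689, 0.191 and 0.487 FPKM in WT livers 1, 2 and 3. As for Ccl2, every G2A value was above every WT value, and 1 of the 6 libraries reached 1 FPKM. Ccl7 therefore did not pass the filter. Without a filter its log2 fold change was 0.47 (SE 0.14, limma adjusted p = 0.188), and a pseudocount of 0.1 raised the difference of log2 means to 1.10. Over all 19198 liver entries above 0 in some library, 10.7% were higher in G2A without overlap and 11.9% lower. Over the 12938 genes tested these shares were 11.8% higher and 15.7% lower, 27.5% together. Among the 8 members 2 were higher (Ccl2 and Ccl7) and 1 lower (Cxcl12), together 3 of 8 against 22.6% of those entries.

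Cxcl12, the chemokine of stromal niches, was at 54.1, 54.7 and 50.0 FPKM in G2A livers 1, 2 and 3, against 87.6, 65.5 and 63.4 FPKM in WT livers 1, 2 and 3. The G2A livers lay close together and all below the WT livers, among which WT liver 1 was the highest. The log2 fold change was -0.43 (95% confidence interval -0.74 to -0.11, SE 0.13, limma adjusted p = 0.148). It stayed between -0.51 and -0.28 when any 1 liver was left out, the smallest size being without WT liver 1. Library weights in limma gave -0.35 and an adjusted p of 0.0251, in a range of 0.0251 to 0.365 over 15 alternatives. With those weights 6057 of 12938 genes were called.

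Csf1 was at 8.19, 11.1 and 9.53 FPKM in G2A livers 1, 2 and 3, against 8.24, 7.35 and 7.16 FPKM in WT livers 1, 2 and 3. G2A liver 1 lay just below WT liver 1, so the groups overlapped. The log2 fold change was 0.30 (95% confidence interval 0.01 to 0.58, SE 0.12, limma adjusted p = 0.221).

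The neutrophil attractants were low in liver. Cxcl1 was at 0.0760, 0.627 and 1.27 FPKM in G2A livers 1, 2 and 3, against 0.0787, 0.0764 and 0.0779 FPKM in WT livers 1, 2 and 3. G2A livers 2 and 3 stood above the others, and G2A liver 1 was as low as the WT livers. Relative to the smallest Cxcl1 value, G2A livers 2 and 3 were 8.24 and 16.7 times higher, and the other 4 livers lay within 1.03 times of it. Cxcl5 was at 0.898, 0.885 and 0.733 FPKM in G2A livers 1, 2 and 3, against 0.888, 0.667 and 0.520 FPKM in WT livers 1, 2 and 3, with overlap. Neither passed the filter, and without a filter limma gave log2 fold changes of 0.56 for Cxcl1 (adjusted p = 0.337; 0.30 without G2A liver 3, 0.83 without G2A liver 1 and, as a difference of log2 means, 1.66 with a pseudocount of 0.1) and 0.12 for Cxcl5 (adjusted p = 0.564).

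The cytokines of the Il6st receptor were lower still. Il6 was listed at 0, 0.529 and 0.201 FPKM in G2A livers 1, 2 and 3, against 0.0664, 0.0644 and 0.197 FPKM in WT livers 1, 2 and 3. Lif was at 0.142, 0.0812 and 0.0164 FPKM in G2A livers 1, 2 and 3, against 0.0652, 0.0158 and 0.0484 FPKM in WT livers 1, 2 and 3. Both overlapped between the genotypes, with the highest library of each in G2A. A difference in these 2 genes was not detectable at these levels, where the Il6 difference of 0.14 on the log2(FPKM + 1) scale went to -0.02 without G2A liver 2. Of the 8 members 7, all but Il6, had their highest WT value in WT liver 1. The share of all genes for which this held was not computed, so the count is not a trait of the members. For Cxcl1 the WT livers were nearly equal, at 0.0787, 0.0764 and 0.0779 FPKM in WT livers 1, 2 and 3, and Lif was close to 0.

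**Figure D1:**
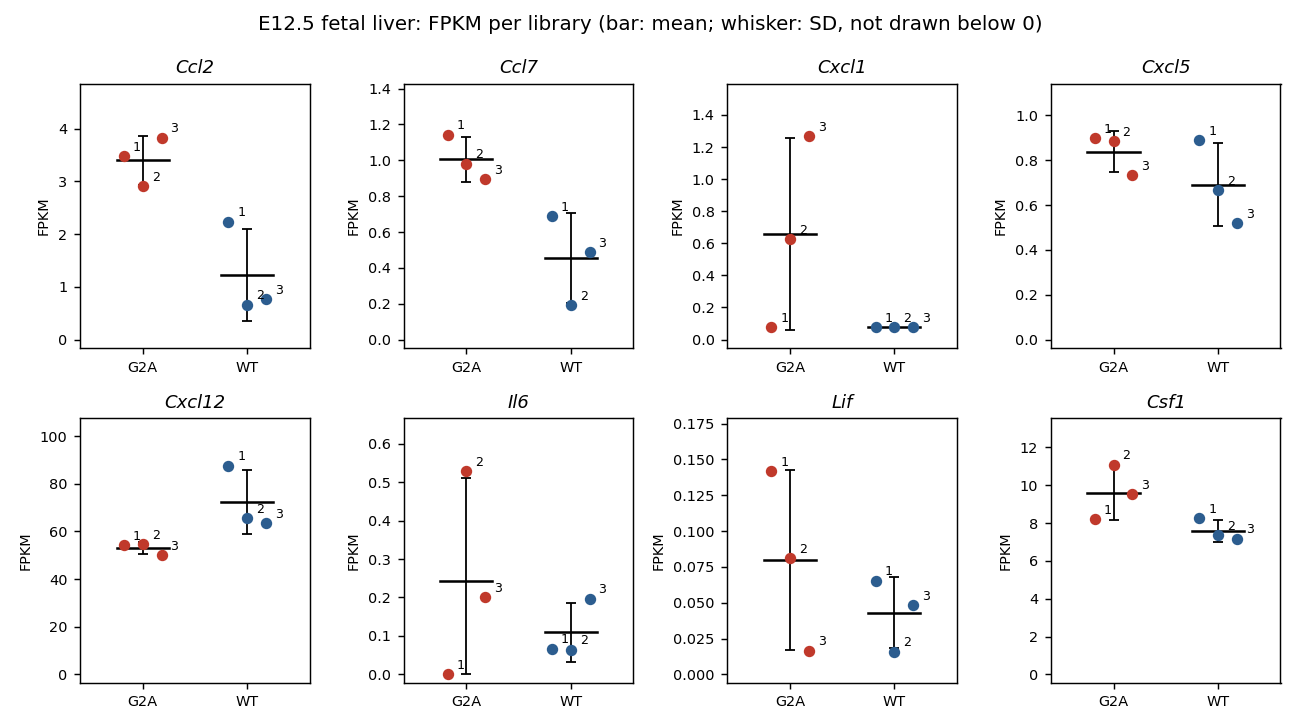
FPKM of the 8 members in each E12.5 liver library, with G2A livers left and WT livers right in every panel; numbers give the library, bars the mean and whiskers the SD, and each panel has its own linear axis. Ccl2 and Ccl7 are higher in all 3 G2A livers, Cxcl12 is lower in all 3, and Cxcl1 is high in G2A livers 2 and 3 at 0.627 and 1.27 FPKM.

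In bulk liver, fewer cells of a type and less RNA per cell cannot be told apart. Markers of the other cell types in the liver are given here beside the members. Summed mesenchymal markers were at 1032 to 2045 FPKM in G2A livers and 493 to 706 FPKM in WT livers. None of the 12 tested passed limma's test, 5 of 12 were higher without overlap, beside 11.8% of all genes, and their median log2 fold change was 0.28, beside 0.01 over all genes. Lum, a collagen-binding proteoglycan, was at 184 ± 60.2 FPKM in G2A and 58.3 ± 12.8 FPKM in WT livers (SD, n = 3 each; log2 fold change 1.61, limma adjusted p = 0.0902, and 0.00963 without G2A liver 3). The 5 mesenchymal markers that were higher without overlap were the matrix genes Col1a1, Col1a2, Col3a1, Lum and Dcn, which made up most of the sum. The other mesenchymal markers tested, Pdgfra, Pdgfrb, Des, Reln, Ngfr, Lhx2 and Hgf, overlapped between the genotypes. Summed endothelial markers were at 150.4 to 155 FPKM in G2A and 131 to 143 FPKM in WT livers, with 0 of 9 past the test and Kdr, a VEGF receptor, having the smallest p (log2 fold change 0.46, limma adjusted p = 0.0914, and 0.00982 without G2A liver 3). Summed macrophage markers overlapped, at 202 to 223 FPKM in G2A and 190 to 243 FPKM in WT livers, with a median log2 fold change of -0.18 over 13 tested of 14. Of the 13, 8 had log2 fold changes below 0. Without overlap, 2 were higher in G2A (Cd68 and Mrc1) and 2 lower (Cx3cr1 and Aif1). The smallest p was that of Cd68, a lysosomal protein of macrophages, at 17.5 ± 1.23 FPKM in G2A and 13.9 ± 1.37 FPKM in WT livers (limma adjusted p = 0.145). Summed neutrophil markers were at 446, 327 and 740 FPKM in G2A livers 1, 2 and 3, against 250, 437 and 526 FPKM in WT livers 1, 2 and 3. G2A liver 3 held the highest sum and the most Cxcl1, while G2A liver 2, second in Cxcl1, held the lowest sum of the G2A livers. The smallest p was that of Camp, a granule peptide (limma adjusted p = 0.511). Summed erythroid markers were at 1609 to 3022 FPKM in G2A and 2352 to 3332 FPKM in WT livers, with Epor, the erythropoietin receptor, at 69.2 ± 10.4 FPKM in G2A and 96.1 ± 2.57 FPKM in WT livers (limma adjusted p = 0.107, and 0.00963 without G2A liver 3). Summed hepatoblast markers overlapped, at 9606 to 13886 FPKM in G2A and 10002 to 12364 FPKM in WT livers. Of the 9 tested, 6 had log2 fold changes below 0, with a median of -0.12, and the smallest p was that of Dlk1, a hepatoblast surface protein, at 439 ± 38.3 FPKM in G2A and 368 ± 15.8 FPKM in WT livers (limma adjusted p = 0.152). Summed fibroblast markers, which share members with the mesenchymal list, were at 1184 to 2337 FPKM in G2A and 653 to 867 FPKM in WT livers, with a median log2 fold change of 0.87, 6 of 10 higher without overlap, and fibronectin (Fn1) at 149.9 ± 20.1 FPKM in G2A and 90.7 ± 3.90 FPKM in WT livers (limma adjusted p = 0.0902, and 0.00971 without G2A liver 3). Without G2A liver 3, limma called 6 of 12 mesenchymal and 8 of 10 fibroblast markers higher, 2 of 9 endothelial markers higher, and 8 of 10 erythroid markers and 3 of 9 hepatoblast markers lower, where 12.3% of all genes were called higher and 12.2% lower. The fibroblast marker S100a4, higher without overlap and called in that fit, passed the filter in both fits only through the G2A livers, where it was high. No listed marker of these types was at 0 in all livers, and the part of these cells in the differences was not tested.

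In MEFs the same question was asked of 5 libraries. WT library 3 was the outermost of the 5 libraries for 6 of the 7 members tested (3 times highest, 3 times lowest), as for 57.4% of all genes. Cxcl12 was far lower in both G2A MEFs than in every WT MEF. Cxcl1 and Cxcl5 were lower in G2A MEFs than in WT MEFs 1 and 2 and higher than in WT MEF 3. Lif and Ccl2 were highest in WT MEF 3, and Il6 was close to 0 everywhere. With all 5 libraries limma called none of the 7 members tested (all but Il6, at a filter of at least 10 normalized reads in at least 2 libraries) and 0% of 13241 genes, with 1903 genes at an unadjusted p under 0.05. Called genes were 0 by edgeR (1844 at an unadjusted p under 0.05) and 1035 by DESeq2 (2660 unadjusted). Without WT MEF 3 limma called 4 of 7 members, 3 lower (Cxcl1, Cxcl5 and Cxcl12) and 1 higher (Lif), in a background of 23.7% of 12963 genes, 11.8% lower and 11.9% higher.

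Cxcl12 was at 5162 and 4888 normalized reads in G2A MEFs 1 and 2, against 24085, 11238 and 14243 in WT MEFs 1, 2 and 3. The groups did not overlap with or without WT MEF 3, which for this gene lay between the other WT libraries. The difference was 3.12-fold lower in G2A (log2 fold change -1.64, 95% confidence interval -2.47 to -0.81, SE 0.33, limma adjusted p = 0.269). Cxcl12 was past the threshold without WT MEF 3 (-1.71, limma adjusted p = 0.0219) and, with all libraries, by DESeq2 (-1.72, adjusted p = 0.000136); over 17 alternatives the adjusted p ran from 0.000136 to 0.986. Ccl7 and Cxcl12 were the 2 of 7 members whose groups did not overlap with all libraries, both lower in G2A, as for 36.8% of the genes tested (18% lower, 18.9% higher) and 30.5% of all 18042 entries above 0 (14.9% lower, 15.6% higher). With WT MEF 3 left out, genotypes did not overlap for 67.9% of genes. Summed fibroblast markers were at 519997 to 522655 normalized reads in G2A MEFs and 720396 to 1290171 in WT MEFs, none of the 10 at 0, with 0 of 10 past the test. Col3a1, a fibrillar collagen chain, stood out in that list with 9488 ± 105 normalized reads in G2A MEFs (SD, n = 2) and 49035 ± 26107 in WT MEFs (SD, n = 3; log2 fold change -2.24, limma adjusted p = 0.269, and 0.0157 without WT MEF 3). Summed mesenchymal markers were at 234379 to 240314 normalized reads in G2A MEFs and 427919 to 725849 in WT MEFs, with Col3a1 again at the smallest p. Without WT MEF 3, limma called 6 of 10 fibroblast markers lower and 1 higher, and 5 of 9 mesenchymal markers lower and 3 higher, where 11.8% of all genes were called lower and 11.9% higher. Hgf and Dcn, among the mesenchymal markers called higher, passed the filter in that fit only through the G2A MEFs. Macrophage markers summed to 199 to 282 in G2A and 115 to 495 in WT MEFs, with Marco at 0. Neutrophil markers summed to 3.92 to 4.93 in G2A and 0 to 16.0 in WT MEFs, with Mpo, Ctsg, S100a8, S100a9, Ngp and Ltf at 0. Endothelial markers summed to 1468 to 1844 in G2A and 391 to 2164 in WT MEFs, with Tie1, Lyve1 and Emcn at 0. Of the 5 tested, 3 had log2 fold changes below 0, with a median of -0.28, and the smallest p was that of Cdh5, an endothelial cadherin, at 32.5 and 15.7 in G2A MEFs 1 and 2, against 2.06, 6.26 and 0 in WT MEFs 1, 2 and 3 (limma adjusted p = 0.328). Cdh5 passed the filter only through the G2A MEFs, where it was high. Hepatoblast markers summed to 4619 to 7779.9 in G2A and 645 to 32104 in WT MEFs, with the transcription factor Foxa2 at 88.8 and 97.1 in G2A MEFs 1 and 2, against 0, 0 and 71.4 in WT MEFs 1, 2 and 3 (limma adjusted p = 0.387, and 0.00135 without WT MEF 3). Without WT MEF 3, Foxa2 passed the filter only through the G2A MEFs, so its call in that fit is no independent support for a direction. Erythroid markers summed to 3893 to 4608 in G2A and 3528 to 4944 in WT MEFs, with Gata1, Slc4a1, Epb4.2 and Hbb-b1 at 0 and Epor at 64.1 and 60.8 in G2A MEFs 1 and 2, against 14.4, 13.6 and 44.2 in WT MEFs 1, 2 and 3 (limma adjusted p = 0.365, and 0.0119 without WT MEF 3). The part of these other cell types and matrix genes in the Cxcl12 difference was not tested.

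The neutrophil attractants spread widely among the WT MEFs. Cxcl5 was at 58.2 and 77.4 normalized reads in G2A MEFs 1 and 2, against 2299.9, 1519 and 37.6 in WT MEFs 1, 2 and 3. WT MEFs 1 and 2 were high and the other 3 libraries low. With all libraries the log2 fold change was -2.91 (95% confidence interval -7.52 to 1.69, limma adjusted p = 0.491), and without WT MEF 3 it was -4.78, or 27.4-fold lower in G2A (SE 0.27, limma adjusted p = 0.000776; range over 17 alternatives 2.83e-65, by DESeq2 without WT MEF 3, to 0.986). Cxcl1, on the same chromosome, followed the same order at lower contrast. It was at 53.3 and 64.7 normalized reads in G2A MEFs 1 and 2, against 125, 116 and 30.1 in WT MEFs 1, 2 and 3. The log2 fold change was -0.37 with all libraries (95% confidence interval -2.17 to 1.43, limma adjusted p = 0.831) and -1.02 without WT MEF 3 (limma adjusted p = 0.0432; range over 17 alternatives 0.0266 to 0.998). For Cxcl1 it was -0.013 without WT MEF 1 and -0.066 without WT MEF 2. That of Cxcl5 was -1.83 without WT MEF 1 and -2.13 without WT MEF 2.

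The monocyte attractants were highest in WT MEF 3. Ccl2 was at 206 and 277 normalized reads in G2A MEFs 1 and 2, against 182, 221 and 1149 in WT MEFs 1, 2 and 3. WT MEF 3 was far above the other libraries, and the G2A MEFs overlapped with WT MEFs 1 and 2. The log2 fold change was -0.59 with all libraries (95% confidence interval -2.71 to 1.54, limma adjusted p = 0.765) and turned to 0.25 without WT MEF 3 (95% confidence interval -0.34 to 0.84, limma adjusted p = 0.476; range over 17 alternatives 0.374 to 0.989). Ccl7 was at 137 and 202 normalized reads in G2A MEFs 1 and 2, against 216, 424 and 979 in WT MEFs 1, 2 and 3. Every G2A value was below every WT value, though G2A MEF 2 and WT MEF 1 differed by little. Its log2 fold change was -1.42 (95% confidence interval -3.07 to 0.22, SE 0.65, limma adjusted p = 0.386) and -0.86 without WT MEF 3 (limma adjusted p = 0.157; range over 17 alternatives 0.0211 to 0.986).

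Lif, the cytokine that keeps mouse embryonic stem cells undifferentiated, was at 245 and 257 normalized reads in G2A MEFs 1 and 2, against 109, 142 and 437 in WT MEFs 1, 2 and 3. The G2A MEFs lay between the lower pair of WT libraries and WT MEF 3. The log2 fold change was 0.40 with all libraries (95% confidence interval -1.18 to 1.98, limma adjusted p = 0.784), and without WT MEF 3 Lif was 2.004-fold higher in G2A (log2 fold change 1.003, limma adjusted p = 0.0296; range over 17 alternatives 0.00884 to 0.998). The Lif change was 0.0080 without WT MEF 1 and 0.20 without WT MEF 2. Il6 had 0 and 1 whole reads in G2A MEFs 1 and 2, against 6, 0 and 4 in WT MEFs 1, 2 and 3. A count of 0 allows up to 3 reads, or 2.96 normalized reads in G2A MEF 1 and 3.13 in WT MEF 2, by counting error only. No difference in Il6 was detectable at this depth.

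Csf1 was at 20469 and 20595 normalized reads in G2A MEFs 1 and 2, against 25767, 35049.9 and 13988 in WT MEFs 1, 2 and 3. The G2A MEFs agreed closely with each other and lay inside the WT range. The log2 fold change was -0.18 (95% confidence interval -1.17 to 0.81, limma adjusted p = 0.847), -0.55 without WT MEF 3 (limma adjusted p = 0.0615) and 0.11 without WT MEF 2. Without WT MEF 3, edgeR and DESeq2 put Csf1 past the threshold (adjusted p = 0.0497 and 0.00336, in a range over 17 alternatives of 0.00336 to 0.989). In those fits edgeR called 3217 genes and DESeq2 3652.

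**Figure D2:**
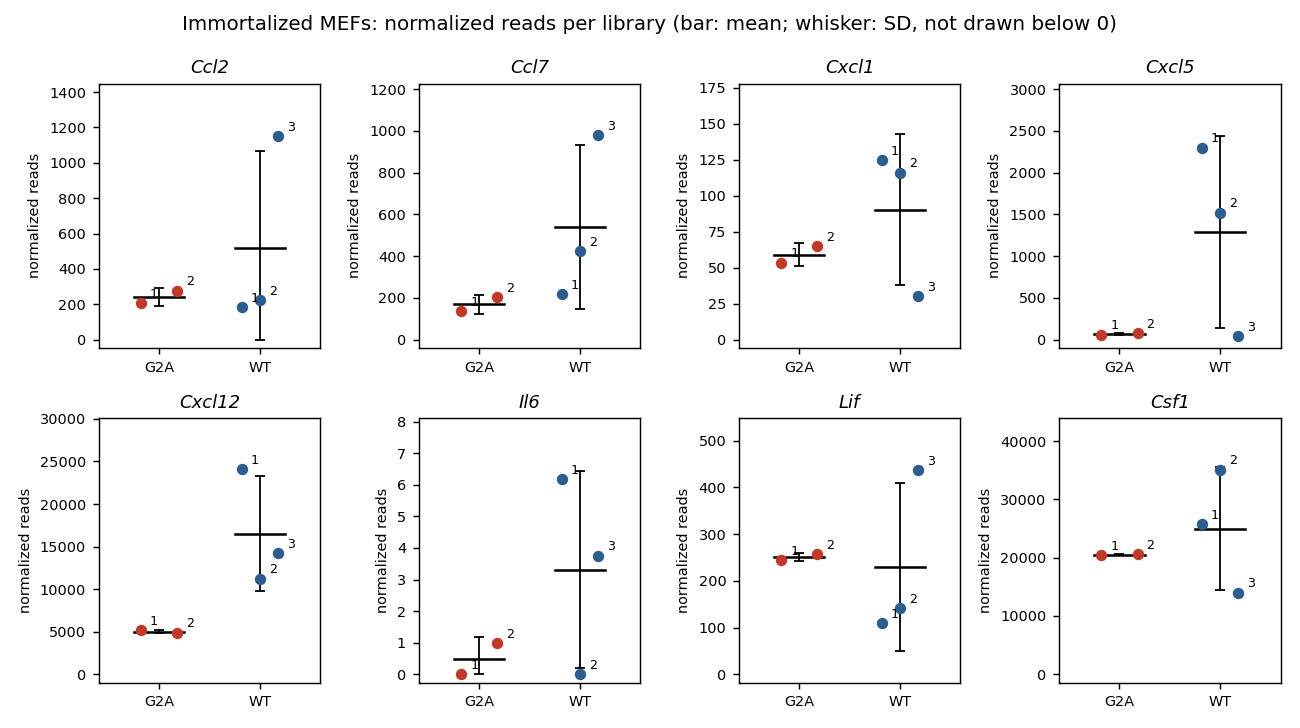
Normalized reads of the 8 members in each MEF library, with G2A MEFs left and WT MEFs right in every panel; numbers give the library, bars the mean and whiskers the SD, and each panel has its own linear axis. WT MEF 3 is the highest library for Ccl2, Ccl7 and Lif and the lowest for Cxcl1, Cxcl5 and Csf1, while Cxcl12 is at 5162 and 4888 in the G2A MEFs, below all WT MEFs.

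Levels can be ordered only per length. In FPKM, both G2A and WT livers had Cxcl12 first (mean 52.9 in G2A and 72.2 in WT), Csf1 second (9.60 in G2A and 7.58 in WT) and then Ccl2 (3.41 in G2A and 1.22 in WT). Below these, the next ranks overlapped from Ccl7 to Lif in G2A livers and from Ccl2 to Cxcl1 in WT livers. In normalized reads per kilobase of exon, Csf1 was first in MEFs, at a mean of 3902 in G2A and 4739 in WT, and Cxcl12 second, at 615 in G2A and 2021 in WT. Their ranges overlapped in WT MEFs and not in G2A MEFs. Ccl2 and Ccl7 were alike in G2A MEFs, at 212 and 212 normalized reads per kilobase. Cxcl5 came next in WT MEFs at 777, spread from 22.7 to 1389.6 over the libraries, and below all but Il6 in G2A MEFs at 41.0.

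Ccl2, Cxcl12 and Csf1 were tested in both tissues, which share no library, so the G2A effects could be compared. Cxcl12 had a log2 fold change of -0.43 in liver and -1.64 in MEFs, a difference of 1.22 (SE 0.35, adjusted p = 0.105 from the limma fits, where 2.21% of 10818 genes passed). Without WT MEF 3 the Cxcl12 difference was 1.28 (adjusted p = 0.0369) and the Csf1 difference 0.85 (adjusted p = 0.0108), both past the threshold, as for 30.4% of 10714 genes in that comparison; over 15 alternatives the adjusted p ran from 0.00296 to 0.571 for Cxcl12 and from 0.00583 to 0.810 for Csf1. With all libraries the Csf1 difference was 0.48 (adjusted p = 0.516). For Ccl2 the difference was 1.64 (SE 0.88, adjusted p = 0.309) and 0.80 without WT MEF 3 (adjusted p = 0.109; range over 15 alternatives 0.0583 to 0.733).

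**Figure D3:**
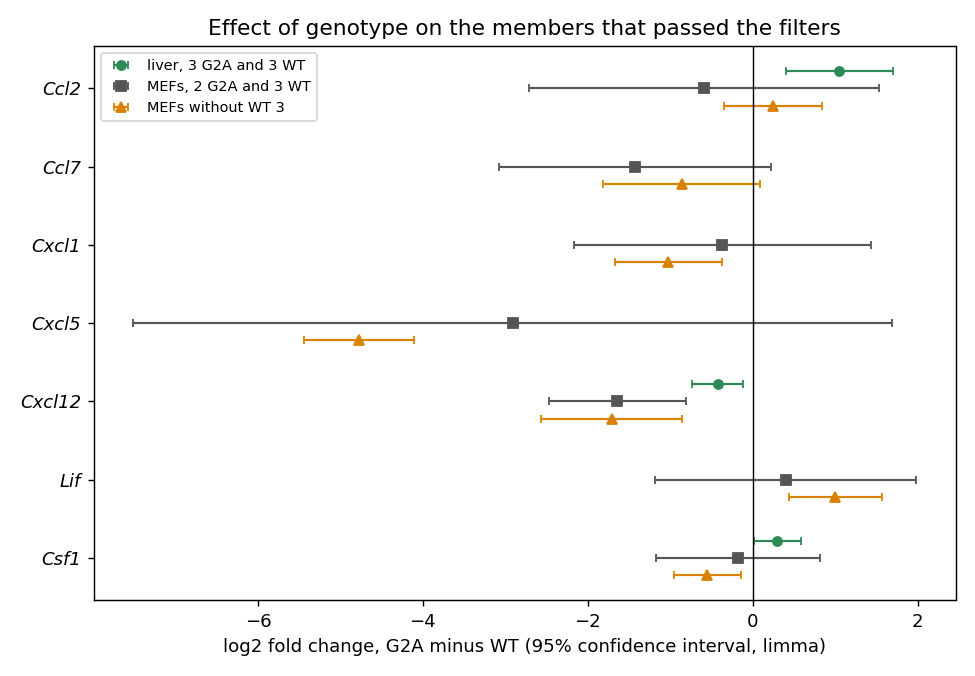
Log2 fold change of G2A minus WT with its 95% confidence interval from limma for each member that passed the filter, in liver (green circles), in all MEF libraries (grey squares) and in MEFs without WT library 3 (orange triangles). Cxcl12 lies below 0 in all 3 fits at -0.43, -1.64 and -1.71, and the interval of Cxcl5 narrows from -7.52 to 1.69 with all MEFs to -5.44 to -4.11 without WT MEF 3.

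Among the receptors, 10 of 15 were tested in liver and 6 of 15 in MEFs, and none passed limma's test. In liver their median log2 fold change was 0.13, beside 0.01 over all genes. Csf1r, the receptor of Csf1, was at 16.2, 16.2 and 12.7 FPKM in G2A livers 1, 2 and 3, against 16.0, 13.1 and 15.8 FPKM in WT livers 1, 2 and 3, with overlap. Darc (now Ackr1), a decoy receptor that binds Ccl2 and other chemokines and is made by red cell precursors and venous endothelium, had the smallest p of the list, at 19.1 ± 7.29 FPKM in G2A and 38.1 ± 7.84 FPKM in WT livers (SD, n = 3 each; log2 fold change -0.997, limma adjusted p = 0.136, and -1.27, adjusted p = 0.0148, without G2A liver 3). In MEFs the receptors had a median of -0.16, and of 0.19 without WT MEF 3. Without overlap, 3 of the 6 were lower in G2A (Il6st, Lifr and Osmr) and 1 higher (Csf1r), beside 18% and 18.9% of all genes. Osmr, the oncostatin M receptor, which pairs with Il6st, had the smallest p in MEFs. It was at 1704 and 1761 normalized reads in G2A MEFs 1 and 2, against 3759.9, 2902 and 3563 in WT MEFs 1, 2 and 3. WT MEF 3 was with the other WT libraries for this gene (log2 fold change -0.97, limma adjusted p = 0.269, and -0.93, adjusted p = 0.0102, without WT MEF 3). Csf1r was at 81.8 and 65.7 normalized reads in G2A MEFs, against 9.27, 2.09 and 46.1 in WT MEFs 1, 2 and 3 (log2 fold change 2.70, limma adjusted p = 0.377, and 3.72, adjusted p = 0.0149, without WT MEF 3). With and without WT MEF 3, Csf1r passed the filter of 10 normalized reads only through the G2A MEFs, where it was high. Its lack of overlap and its call without WT MEF 3 are therefore no independent support for a direction.

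Other chemokine ligands were tested for 12 of 30 in liver and 11 of 30 in MEFs, with none past limma's test. In liver 4 of the 12 were higher in G2A without overlap and none lower, beside 11.8% and 15.7% of all genes, with a median of 0.12. Among the 4, Ccl12 passed the filter only through the G2A livers, so it is no independent support for a direction. It was at 1.54, 1.76 and 1.78 FPKM in G2A livers 1, 2 and 3, against 0.882, 0 and 0.699 FPKM in WT livers 1, 2 and 3. Cxcl10, an interferon-induced attractant of T cells, had the smallest p, at 16.8, 25.5 and 27.2 FPKM in G2A livers 1, 2 and 3, against 8.04, 7.24 and 9.13 FPKM in WT livers 1, 2 and 3 (log2 fold change 1.38, limma adjusted p = 0.0902, and 1.26, adjusted p = 0.0129, without G2A liver 3). In MEFs the median was -0.27, with 1 of 11 higher and 2 lower without overlap, beside 18.9% and 18% of all genes. Cx3cl1, a membrane-bound chemokine, was at 315 and 345 normalized reads in G2A MEFs 1 and 2, against 2232, 1829 and 571 in WT MEFs 1, 2 and 3 (log2 fold change -2.01, limma adjusted p = 0.298, and -2.61, adjusted p = 0.000801, without WT MEF 3). Other cytokines were tested for 8 of 19 in liver (median -0.03) and 13 of 19 in MEFs (median 0.18, and 0.82 without WT MEF 3), again with none past the test. In MEFs 2 of the 13 were higher in G2A without overlap and 6 lower, beside 18.9% and 18% of all genes. Of these, Csf3 passed the filter only through the G2A MEFs, where it was high, and Cntf only through the WT MEFs, where it was high. Csf3 and Cntf are therefore no independent support for a direction. Cntf had the smallest p in liver (1.33 ± 0.447 FPKM in G2A and 2.40 ± 0.524 FPKM in WT, limma adjusted p = 0.165, and 0.0275 without G2A liver 3). In MEFs it was Kitl, the ligand of Kit, at 801 and 793 normalized reads in G2A MEFs 1 and 2, against 3753, 1623 and 1188 in WT MEFs 1, 2 and 3 (limma adjusted p = 0.338, and 0.0325 without WT MEF 3).

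Immediate early and C/EBP genes, transcription factors that respond early to stress and growth signals, were tested for 10 of 12 in liver. None of the 10 passed limma's test, all 10 had log2 fold changes above 0 with a median of 0.43, beside 0.01 over all genes, and 6 were higher without overlap, beside 11.8% of all genes. Fos, 1 of the 6, was at 3.06, 5.59 and 1.63 FPKM in G2A livers 1, 2 and 3, against 0.869, 0.482 and 1.01 FPKM in WT livers 1, 2 and 3. It passed the filter only through the G2A livers, so it is no independent support for a direction. Egr1 had the smallest p, at 8.99, 11.4 and 12.6 FPKM in G2A livers 1, 2 and 3, against 6.68, 6.49 and 6.45 FPKM in WT livers 1, 2 and 3 (log2 fold change 0.66, limma adjusted p = 0.0914, and 0.56, adjusted p = 0.0198, without G2A liver 3). In MEFs the list of 12 had a median of -0.22, and of -3.7e-05 without WT MEF 3, with Cebpd at 316 and 328 normalized reads in G2A MEFs 1 and 2, against 744, 593 and 411 in WT MEFs 1, 2 and 3 (limma adjusted p = 0.322, and 0.0123 without WT MEF 3).

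NF-kB subunits, inhibitors and targets were tested for 17 of 21 in liver and 19 of 21 in MEFs, with none past limma's test. The medians were 0.20 in liver, with 5 of 17 higher and 1 lower without overlap, and 0.12 in MEFs, with 6 of 19 higher and 3 lower. The shares of all genes were 11.8% higher and 15.7% lower in liver and 18.9% higher and 18% lower in MEFs. Bcl3, an atypical inhibitor of this family, had the smallest p in liver, at 4.55 ± 0.448 FPKM in G2A and 3.28 ± 0.454 FPKM in WT (SD, n = 3 each; limma adjusted p = 0.153). Nfkbia was at 14.1, 17.4 and 11.4 FPKM in G2A livers 1, 2 and 3, against 10.6, 9.19 and 11.5 FPKM in WT livers 1, 2 and 3. The groups overlapped through G2A liver 3, without which Nfkbia was higher without overlap (log2 fold change 0.41 with all livers, limma adjusted p = 0.212, and 0.55, adjusted p = 0.0285, without it). In MEFs Ptgs2, a prostaglandin synthase, was at 7792 and 10437 normalized reads in G2A MEFs 1 and 2, against 2592, 5168 and 5158 in WT MEFs 1, 2 and 3 (log2 fold change 1.14, limma adjusted p = 0.301, and 1.30, adjusted p = 0.0442, without WT MEF 3). Jak, Stat and Socs genes had a median of 0.01 over 15 tested in liver and -0.32 over 13 in MEFs, where 8 of 13 were lower without overlap, beside 18% of all genes, and none passed; Tyk2 had the smallest p in liver (limma adjusted p = 0.278) and Socs2, a feedback inhibitor, in MEFs (214 ± 22.1 normalized reads in G2A, n = 2, and 615 ± 319.96 in WT, n = 3, SD; limma adjusted p = 0.317, and 0.00913 without WT MEF 3).

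These counts changed when the libraries that stood apart were left out. Without G2A liver 3, limma called 6 of 10 immediate early genes higher and none lower, 3 of 11 other chemokine ligands higher, 1 receptor of 9 higher and 1 lower, 2 NF-kB genes of 17 higher and 2 lower, 1 of 8 other cytokines lower and none of 14 Jak, Stat and Socs genes. In MEFs without WT library 3 it called 2 other chemokine ligands of 10 higher and 3 lower, 4 other cytokines of 13 higher and 1 lower, 2 receptors of 6 higher and 2 lower, 5 NF-kB genes of 19 higher and 2 lower, 4 of 13 Jak, Stat and Socs genes lower, and 3 immediate early genes of 12 higher and 2 lower. The shares of all genes called in these fits were 24.5% in liver and 23.7% in MEFs. Without WT MEF 3, some MEF genes passed the filter only through the group where they were high. Among those called higher these were the cytokines Il33, Il18 and Il15, the receptor Csf1r and the NF-kB gene Traf1. Among those called lower these were Cxcl3 and Cxcl15, through WT MEFs 1 and 2. In liver without G2A liver 3, Fos and Cxcl14, both called higher, passed the filter only through the G2A livers. Their calls are no independent support for a direction.

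**Figure D4:**
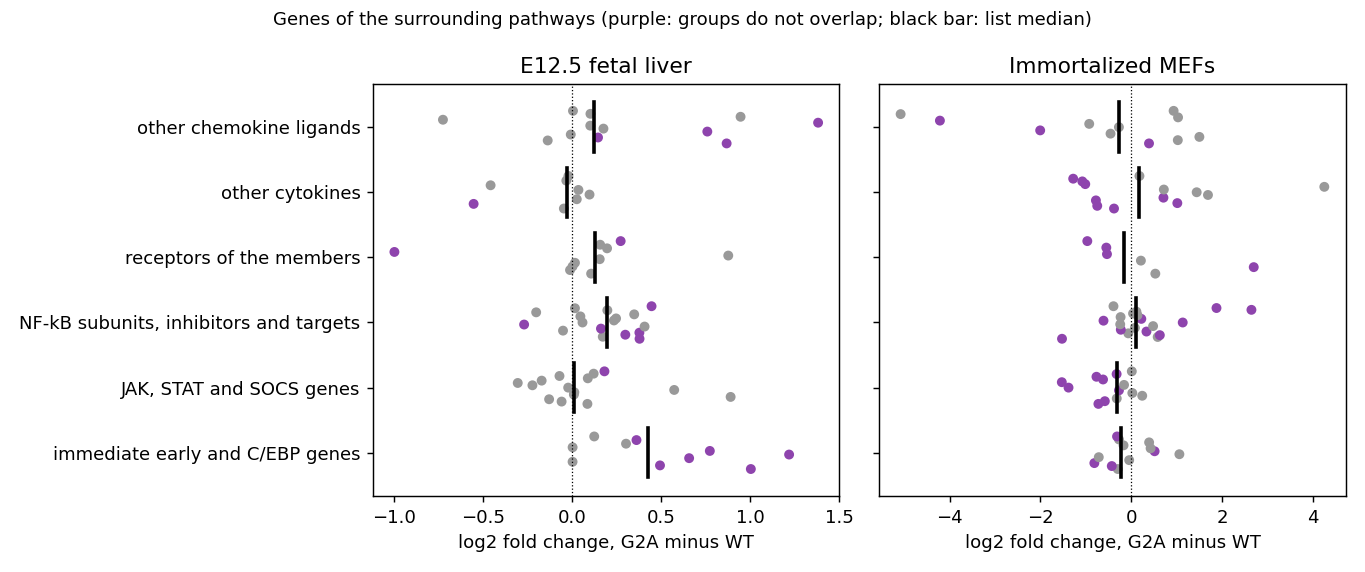
Log2 fold change of G2A minus WT for each tested gene of 6 lists around the members, in liver (left) and MEFs (right); purple points are genes whose genotypes do not overlap and black bars list medians. In liver the immediate early list lies above 0 with a median of 0.43, and in MEFs the Jak, Stat and Socs list has a median of -0.32.

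Patterns like those of the members were sought over all 11 libraries, as the root mean square difference in log2 deviation from the WT mean of the same tissue among 10818 genes. Closest to Ccl2 were Tec, a tyrosine kinase of blood cells (0.43), the stress-induced transcription factor Atf3 (0.43) and Igdcc4 (0.44). Closest to Cxcl12 were Fbxl22 (0.25), Ptx3, a secreted pentraxin of innate immunity (0.28), and Nell2 (0.29). Closest to Csf1 were Lrrk1 (0.11), Fads3 (0.12) and Tmem43 (0.13).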

How the data were processed

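Total RNA (Trizol) was sequenced by BGI; reads, cut to 50 bp, were mapped by TopHat 2.1.1 to mm9, as the labels' protocols state. Cufflinks 2.2.1 and the build mm10 are also listed in the submitters' processing notes. Annotation, counter and strandedness: not given in the sources used here. The authors deposited the liver values as FPKM, a unit inferred from the listed tool and the non-whole values. They deposited the MEF values as a normalized signal per gene; 100% of these were whole reads (within 0.01) once divided by 1 step per library. The labels name 12 samples, of which 11 had a matching column.

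Log2(value + 1) was fitted on genotype within each tissue with limma 3.58.1 in R 4.3.3 (variance trend, Benjamini-Hochberg adjustment over all genes, threshold 0.05, two-sided). The filters were 1 FPKM in 3 libraries and 10 normalized reads in 2. edgeR 4.0.16 and DESeq2 1.42.0 ran on the recovered reads. Liver and MEF effects were compared by the difference of log2 fold changes over their combined standard error. G2A MEFs 1 and 2 differed beyond counting noise (chi-square of 14.8 per degree of freedom). The main limma fits, edgeR, DESeq2 and the difference between tissues were run on simulated data in which no library stood apart. The alternative settings were not. The members and the 13 gene lists were chosen with earlier results of these data known. Outside the members, each list and tissue gave the text up to 3 genes with the largest change past the threshold or, with none past it, the gene with the smallest p. The 3 nearest genes of each member tested in both tissues were also named. Csf1r and Nfkbia in liver, and the genes of the closing section, were chosen after their values were seen. Alternatives covered the pseudocount, filters, scaling, library weights, a replicate block, count models and leaving out each library.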

Additional observations from a re-analysis of the deposited data

Results flagged for a closer look

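Ccl7 was higher in all 3 G2A livers than in any WT liver and lower in both G2A MEFs than in any WT MEF. The difference between its G2A effects (liver minus MEF, on the log2(value + 1) scale) was 1.90. Its size depends on the pseudocount and on WT MEF 3. With a pseudocount of 0.1 the liver effect went from 0.47 to 1.10 and the MEF effect from -1.42 to -1.43. Without WT MEF 3 the MEF effect was -0.86. Since Ccl7 did not pass the liver filter, the difference of 1.90 was not tested with the filter. Without a filter in either tissue, a setting chosen after seeing the data, it had an adjusted p of 0.208 from the limma fits. Groups held 2 or 3 libraries, too few to test a single library against its group.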

How the results depend on the processing

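Genes called in liver numbered 3 of 12938, with 6057 of 12938 under library weights and 1 without small RNA genes. Leaving out 1 library gave 0 to 3140, the highest without G2A liver 3. Members called in liver were 0, with 2 under library weights (Ccl2 and Cxcl12) and 0 in every fit without 1 library. In MEFs 0 of 13241 genes and 0 members were called, with 6124 genes and 4 members under library weights and 1035 and 1 by DESeq2. Leaving out 1 MEF library gave 0 to 3076 genes and 0 to 4 members, the highest without WT MEF 3. Without WT MEF 3, chosen after seeing the data, edgeR called 3217 genes and 5 members and DESeq2 3652 and 4. The labels do not tie numbers to litters, and the sample number was not used to pair samples: deviations from group means correlated at 0.18, -0.10 and 0.10 in liver and at 0.13 and -0.03 in MEFs. A replicate block called 0 members in liver, 3707 genes and 5 members in MEFs, where WT MEF 3 is alone in its block and adds nothing to the genotype effect, and 3690 genes for the difference between tissues. That difference called 239 genes, 29 without a filter, and 2 to 3262 when 1 library was left out. The Ccl2 change in MEFs reversed to 0.28 under library weights, to 0.25 without WT MEF 3 or under the replicate block, and, without WT MEF 3, to 0.25 by edgeR and 0.26 by DESeq2; that of Csf1 reversed to 0.11 without WT MEF 2. Over all fits without 1 library the changes ran from -1.07 to 0.25 for Ccl2 and from -0.55 to 0.11 for Csf1. The other members tested kept their direction in the alternatives run; Il6 in liver, untested, went to -0.02 without G2A liver 2. The cause was not tested. Where a fit leaves 1 G2A MEF, that library is assumed to vary like the other group. Liver depth is unknown, which limits statements on Cxcl1, Cxcl5, Il6 and Lif there.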

Other observations

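Several other secreted factors of MEFs, picked here after their values were seen, also set WT MEF 3 apart. The chemokine Ccl5 was at 60.2 and 78.4 normalized reads in G2A MEFs 1 and 2, against 15.5, 31.3 and 1639.9 in WT MEFs 1, 2 and 3. Cxcl10 was at 307 and 215 in G2A MEFs 1 and 2, against 60.8, 176 and 2737 in WT MEFs 1, 2 and 3. Il1rn, the antagonist of the interleukin-1 receptor, was at 239 and 236 in G2A MEFs 1 and 2, against 33.0, 34.4 and 2519.6 in WT MEFs 1, 2 and 3. All 3 were thus most abundant in WT MEF 3 and least in WT MEFs 1 and 2. In the opposite direction, Cxcl3, a ligand of Cxcr2 like Cxcl1 and Cxcl5, was at 9.86 and 0 in G2A MEFs 1 and 2, against 725, 664 and 1.88 in WT MEFs 1, 2 and 3.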
